A study of Homo sapiens with 24 samples.

Results

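The 58 genes described here encode nucleolar proteins and assembly factors of the ribosome. They were taken by symbol from a list, through the NCBI Gene identifiers of the count tables. All 58 were found among the 28395 identifiers that each table holds. The list was chosen with earlier results of these data known. Shares of all genes set beside it are therefore a description and not an independent test. MM1.S and JJN3 are established cell lines from human multiple myeloma, a cancer of plasma cells. MM1.S is labelled p53 wild type and JJN3 p53 null, and the genotype field reads wild type for both. Each line was sampled after 24 h with vehicle, with CX-5461 at 500 nM, with panobinostat at 50 nM, or with both drugs, giving 8 groups of 3 libraries. Groups follow the sample titles, and for the 3 JJN3 libraries titled CX-5461 the treatment field reads CX-5461, CX-5462 and CX-5463, so every JJN3 value with CX-5461 alone rests on the titles. RNA polymerase I, which transcribes the genes of ribosomal RNA, is a target of CX-5461, and histone deacetylases are targets of panobinostat. The series set the drugs alone and together against vehicle. The p53 status is a property of the line, and each status is held by 1 line, so p53 and every other difference between MM1.S and JJN3 cannot be told apart.

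Ribosomes are built in the nucleolus, where RNA polymerase I makes a long precursor of ribosomal RNA. Small nucleolar ribonucleoproteins (snoRNPs) modify that precursor, the small subunit (SSU) processome folds and cuts it into the small, 40S subunit, and a separate series of factors assembles the large, 60S subunit. Myeloma cells secrete much protein and carry a large load of ribosome production, and many assembly genes are known targets of the transcription factor MYC. The 58 genes were arranged by role: 3 abundant nucleolar proteins, 7 snoRNP genes, 5 of the t-UTP subcomplex that joins the nascent precursor first, 11 others of the SSU processome, 8 of late 40S assembly, 3 of the PeBoW complex and 21 others of 60S assembly.

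The labels give polyA RNA as the molecule, and ribosomal RNA was not analysed here. They name both a polyA TruSeq kit and 3′ RNA sequencing, and which of these library types gave the counts is not settled. Libraries held 4751893 to 7305069 counts, and in the tests 56 of the 58 genes passed the filter on low counts. UTP4 and NOC2L did not pass, with at most 9 and 13 counts in a library. All 7 plasma cell markers checked were detected in vehicle-treated MM1.S, and all but CD38 in vehicle-treated JJN3. There CD38 had at most 1 count in a library (0.0666 ± 0.115 CPM, SD, n = 3). CPM are counts scaled to a common library total, with library sizes scaled by the trimmed mean of M-values (TMM). In MM1.S the summed level of those 7 plasma cell markers was 4899 to 5109 CPM with vehicle and 430 to 592 CPM with panobinostat. In JJN3 it was 1529 to 1683 CPM with vehicle, 1017 to 1083 CPM with panobinostat and 635 to 714 CPM with both drugs. The NCAM1 gene, from a list of 4 T and NK cell markers, was at 11.7 ± 1.29 CPM with vehicle and 212 ± 29.1 CPM with panobinostat in MM1.S (SD, n = 3), and CD3E in the same list was under 1 CPM in each of these libraries. The erythroid gene HBB was at 544 ± 117 CPM in vehicle-treated JJN3. The part of these shifts in the results below was not tested. In JJN3 the 4 libraries of replicate 2 stood apart from the other 8 on the second principal component, and JJN3 results are given with and without them. Whether replicates were separate cultures is not in the labels, and the p-values therefore measure the spread among these libraries only, part of which may be technical.

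The summed level of the 58 genes was highest with vehicle and lowest with panobinostat, alone or with CX-5461, in each line. Abundant genes such as NCL, NPM1, FBL and DDX21 weigh most in this sum. In MM1.S the 3 vehicle libraries had 6728, 7233 and 7529 CPM over the 58 genes. With CX-5461 they had 5433, 5771 and 5959 CPM, with panobinostat 3829, 3177 and 3348 CPM, and with both drugs 4098, 3627 and 3830 CPM. No treated library of MM1.S reached the level of a vehicle library, while the libraries with panobinostat and with both drugs overlapped. In JJN3 the vehicle libraries had 7248, 7858 and 7505 CPM, those with CX-5461 5821, 6483 and 6222 CPM, those with panobinostat 5108, 5046 and 4919 CPM, and those with both drugs 4459, 4597 and 4636 CPM. The 4 JJN3 groups did not overlap. As shares of the unscaled counts, the 58 genes took 0.672% ± 0.0506 with vehicle and 0.357% ± 0.0240 with panobinostat in MM1.S, and 0.727% ± 0.0474 and 0.490% ± 0.00823 in JJN3 (SD, n = 3). These are bulk libraries, in which less RNA per cell and fewer cells that make it cannot be told apart, and a level is relative to the other polyadenylated RNA of its library.

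**Figure D1:**
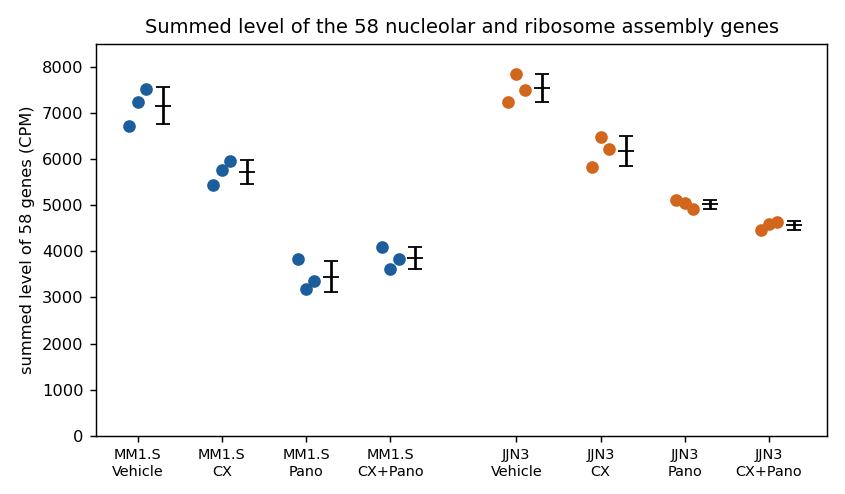
Summed level of the 58 genes (CPM, y axis, starting at 0) in each of the 24 libraries (points), with the mean and SD of each group of 3 (bars), by line and treatment. In MM1.S the panobinostat libraries sit at 3177 to 3829 CPM and overlap those with both drugs, and in JJN3 the libraries with both drugs sit at 4459 to 4636 CPM, below those with panobinostat alone.

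Panobinostat lowered most of these genes in MM1.S. Of 56 genes tested, 52 fell and 0 rose (edgeR quasi-likelihood test, adjusted p under 0.05), against 32.9% of all genes tested that fell and 36.9% that rose. At least 2-fold lower were 32 of the 56, against 16.2% of all genes. The median log2 fold change of the 56 was -1.18, and that of all genes 0.07. In 51 of the 56, all panobinostat libraries lay below all vehicle libraries, against 33.8% of all genes.

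All 3 abundant nucleolar proteins fell. NCL (NCBI Gene 4691), nucleolin, which binds ribosomal RNA precursors and ribosomal chromatin, had 854, 1028 and 1069 CPM in the vehicle libraries of MM1.S and 361, 283 and 314 CPM with panobinostat. The groups were far apart, and the log2 fold change was -1.62 ± 0.11 (SE, edgeR adjusted p = 1.85e-12). DDX21, an RNA helicase of the nucleolus, had 500, 582 and 575 CPM with vehicle and 206, 175 and 180 CPM with panobinostat, a log2 fold change of -1.56 ± 0.11. NPM1 (NCBI Gene 4869), nucleophosmin, a chaperone of the granular outer zone of the nucleolus, had the smallest fall of the 3. It had 777, 901 and 912 CPM with vehicle and 617, 569 and 611 CPM with panobinostat (log2 fold change -0.52 ± 0.10, edgeR adjusted p = 3.58e-05). NPM1 has 50 named pseudogenes, so its value is uncertain where reads of near-identical copies were split.

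All 7 snoRNP genes fell, with a median log2 fold change of -1.21. NOP56 (NCBI Gene 10528), a core protein of the box C/D snoRNPs that guide 2′-O-methylation, had 220, 242 and 259 CPM with vehicle and 64.4, 43.6 and 51.5 CPM with panobinostat. Its log2 fold change, -2.17 ± 0.13, was the largest fall of the group (edgeR adjusted p = 5.57e-13). FBL, fibrillarin, the methyltransferase of the same particles, had the smallest, with 609, 661 and 694 CPM against 391, 332 and 360 CPM (-0.85 ± 0.10). DKC1, dyskerin, the pseudouridine synthase of the box H/ACA snoRNPs, fell from 196, 231 and 206 CPM to 84.2, 67.3 and 59.3 CPM (-1.58 ± 0.12). Its partners NHP2 and GAR1 fell by 1.63 ± 0.20 and 1.21 ± 0.13 on the log2 scale, and NOP58 and NOLC1, the latter a chaperone of snoRNPs, by 0.92 ± 0.10 and 0.95 ± 0.14.

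Of the t-UTP subcomplex 3 of 4 genes tested fell. UTP15 was at -1.88 ± 0.19, WDR43 at -1.69 ± 0.11 and HEATR1 at -1.40 ± 0.24 on the log2 scale. HEATR1, a large scaffold protein, was read at a low level, with 8.17, 12.7 and 12.4 CPM with vehicle and 4.79, 3.65 and 4.10 CPM with panobinostat. WDR75 was the exception. It had 43.0, 43.3 and 43.5 CPM with vehicle and 41.3, 53.7 and 59.1 CPM with panobinostat, and the groups overlapped (log2 fold change 0.26 ± 0.13, edgeR adjusted p = 0.0850).

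Among the other SSU processome genes 10 of 11 fell. RRP9 (NCBI Gene 9136), a U3 snoRNP protein, had 27.6, 28.9 and 29.6 CPM with vehicle and 5.99, 5.39 and 4.29 CPM with panobinostat, a 5.46-fold fall (-2.45 ± 0.21, edgeR adjusted p = 9.82e-11). UTP20, a scaffold of the processome, fell from 25.0, 28.2 and 32.1 CPM to 6.78, 5.74 and 5.04 CPM (-2.27 ± 0.19), and NOC4L by 1.55 ± 0.34 on the log2 scale. The acetyltransferase NAT10 fell by 0.85 ± 0.12 and the U3 snoRNP protein MPHOSPH10 by 0.30 ± 0.12. DDX10, a helicase of the processome, had 41.6, 51.8 and 49.4 CPM with vehicle and 57.3, 51.3 and 42.7 CPM with panobinostat, overlapping groups (0.09 ± 0.14, edgeR adjusted p = 0.574).

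In late 40S assembly 7 of 8 genes fell. RRP12, an export factor of pre-ribosomes, was lowest at -1.69 ± 0.19, followed by BYSL (-1.58 ± 0.16), LTV1 (-1.41 ± 0.25) and PNO1 (-1.35 ± 0.21). NOB1, the endonuclease that makes the last cut of 18S ribosomal RNA, fell less, from 39.3, 44.2 and 46.3 CPM to 35.5, 32.7 and 33.8 CPM (-0.34 ± 0.13, edgeR adjusted p = 0.0219). RIOK2, an atypical kinase of the maturing 40S subunit, had 20.3, 13.99 and 19.3 CPM with vehicle and 20.4, 18.6 and 27.1 CPM with panobinostat, overlapping groups (0.29 ± 0.17, edgeR adjusted p = 0.130).

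All 3 genes of PeBoW, a complex needed for processing of the 60S precursor, fell, BOP1 by 1.85 ± 0.18, PES1 by 1.41 ± 0.30 and WDR12 by 0.74 ± 0.21 on the log2 scale. PES1, pescadillo, had 10.8, 15.1 and 24.3 CPM with vehicle and 8.58, 5.22 and 5.22 CPM with panobinostat, and the spread between its vehicle libraries was wide.

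Of 20 other 60S assembly genes tested 19 fell, among them the largest falls of the whole set. MRTO4 (NCBI Gene 51154), a factor that holds the place of the ribosomal stalk protein on the immature 60S subunit, had 80.7, 83.7 and 97.0 CPM with vehicle and 11.97, 9.91 and 7.65 CPM with panobinostat. This was an 8.83-fold fall (-3.14 ± 0.16, edgeR adjusted p = 5.99e-15). PPAN (NCBI Gene 56342) fell from 13.6, 16.2 and 17.9 CPM to 3.19, 2.09 and 2.61 CPM (-2.59 ± 0.26), and its annotation overlaps a readthrough gene with P2RY11, so reads of the pair could be counted under either. NOP16 (NCBI Gene 51491) fell from 96.3, 87.9 and 112 CPM to 18.2, 19.3 and 17.2 CPM (-2.43 ± 0.14). The nucleolar GTPases GNL3, nucleostemin, and GNL3L fell by 1.40 ± 0.13 and 1.74 ± 0.20 on the log2 scale. DDX27, an RNA helicase, had 130, 148 and 138 CPM with vehicle and 138, 105 and 123 CPM with panobinostat, and the groups overlapped (-0.18 ± 0.11, edgeR adjusted p = 0.136).

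The 4 genes that did not fall came from 4 role groups. Scaled by library size alone, with no TMM factors, RIOK2 and WDR75 were called higher (log2 fold changes 0.43 and 0.40, edgeR adjusted p = 0.0309 and 0.0143) and 48 genes lower, and the median of all genes stood at 0.20 in place of 0.07.

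**Figure D2:**
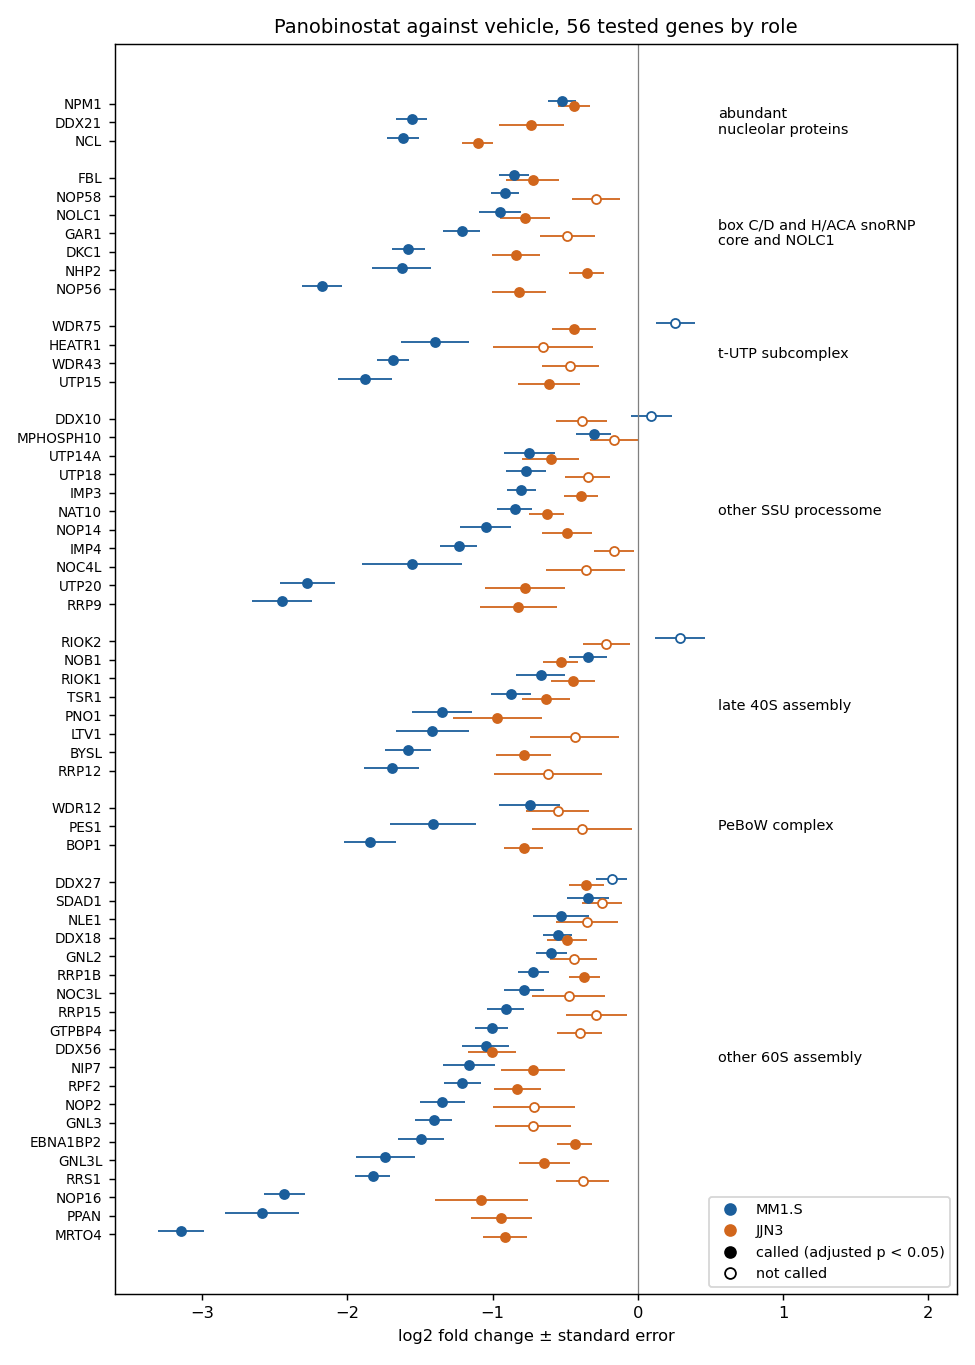
Log2 fold change of panobinostat against vehicle (x axis) with its standard error for the 56 genes tested, in rows by role, in MM1.S (blue) and JJN3 (orange); filled points passed an adjusted p under 0.05. In MM1.S the fold changes run from -3.14 (MRTO4) to 0.29 (RIOK2), and 51 of the 56 JJN3 points lie to the right of the MM1.S point of that gene.

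The promoters of these genes were read for 3 motifs, because so many of them moved together. RefSeq promoters on GRCh38.p14, 250 bases before and 50 from the start site on, were matched by NCBI Gene identifier for 49 of the 58 genes. Those of NOP58, NOLC1, MPHOSPH10, RRP12, BOP1, RRP1B, RRS1, DDX18 and RPF2 were not used here. The E-box CACGTG, the palindrome that MYC and related factors bind, was in 21 of 49 promoters (42.9%), against 7.27% of 27305 promoters of that length and 8.55% of those of protein-coding genes. The ETS motif CCGGAAG, searched on both strands, was in 38.8% against 10.6% of all promoters, and the motif of NRF1, also on both strands, in 8.16% against 1.31%. A match is a match of letters and not a measured binding site. The counts below by position were added after the matches had been seen.

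In 15 of the 49 promoters (30.6%) an E-box began within the 50 bases from the start site on, against 0.916% of all promoters. In the bases upstream alone, 14.3% of the 49, 6.33% of all promoters and 7.56% of those of protein-coding genes held one. These 15 sites are shown because they carry that difference, each on its gene's strand, 5′ to 3′, with the E-box in capitals and up to 10 bases on either side.
FBL: cgctcttttcCACGTGcgaaagcccc
WDR43: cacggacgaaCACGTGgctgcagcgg
UTP18: agcgaggttcCACGTGagcgcctgcg
IMP4: ctcccggaccCACGTGgaagcggcac
NOP14: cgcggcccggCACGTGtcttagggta
PNO1: tgcagctgcgCACGTGtttcagccgg
LTV1: cctggggctgCACGTGtggtgaggcc
BYSL: cttcagtcccCACGTGcgatccttcc
PES1: cttggcagggCACGTGcgggaggaag
NOP2: gtccggattgCACGTGgagggccgc
MRTO4: tcttccgccgCACGTGgattcagcgc
NOC3L: gggacttcggCACGTGtgtcattccc
NLE1: ctttctcctcCACGTGgggacgcagg
GNL2: acgtcgtgcaCACGTGgtccggcgtg
EBNA1BP2: gattcggtggCACGTGga
Counted from the start site as 1, the E-box began at 4 in WDR43 and GNL2, at 5 in UTP18, at 7 in FBL, at 10 in PNO1, at 13 in NLE1, at 14 in PES1, at 15 in MRTO4 and at 16 in IMP4 and NOP14. In NOC3L it began at 20, in LTV1 and BYSL at 29, in NOP2 at 36 and in EBNA1BP2 at 43. The windows and strands are FBL chr19:39846358-39846383 (minus), WDR43 chr2:28894660-28894685 (plus), UTP18 chr17:51260540-51260565 (plus), IMP4 chr2:130342902-130342927 (plus), NOP14 chr4:2963376-2963401 (minus), PNO1 chr2:68157887-68157912 (plus), LTV1 chr6:143843356-143843381 (plus), BYSL chr6:41921517-41921542 (plus), PES1 chr22:30591882-30591907 (minus), NOP2 chr12:6568242-6568266 (minus), MRTO4 chr1:19251809-19251834 (plus), NOC3L chr10:94362905-94362930 (minus), NLE1 chr17:35142276-35142301 (minus), GNL2 chr1:37595919-37595944 (minus), EBNA1BP2 chr1:43172241-43172258 (minus).

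**Figure D3:**
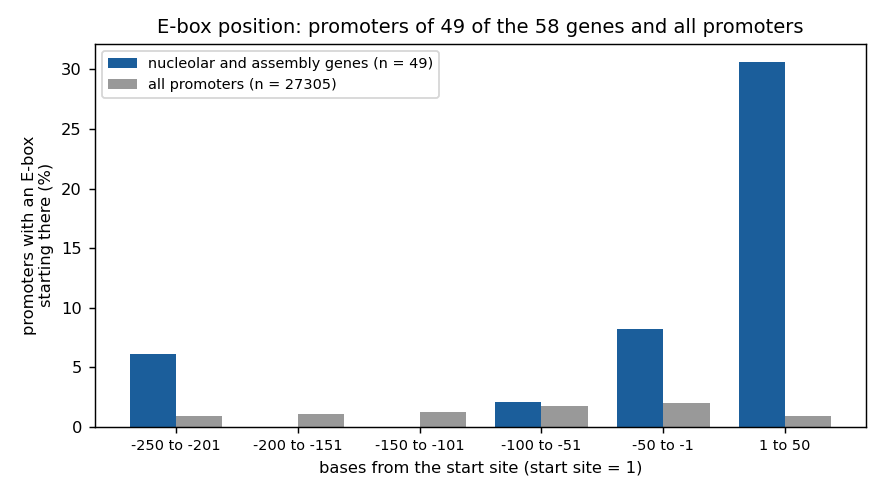
Share of promoters (y axis, %) in which an E-box CACGTG begins in each of 6 stretches of 50 bases (x axis, counted from the start site as 1), for 49 of the 58 genes (blue) and for all 27305 promoters (grey). The stretch from the start site on holds a beginning E-box in 30.6% of the former and 0.916% of the latter.

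The whole promoter is shown for the 3 genes with the largest falls with panobinostat in MM1.S and the 2 with the highest log2 fold changes, on the strand of the gene, with any E-box in capitals. MRTO4 is at chr1:19251555-19251854 (plus strand), PPAN at chr19:10105973-10106272 (plus), RRP9 at chr3:51941855-51942154 (minus), RIOK2 at chr5:97183198-97183497 (minus) and WDR75 at chr2:189441224-189441523 (plus).
MRTO4: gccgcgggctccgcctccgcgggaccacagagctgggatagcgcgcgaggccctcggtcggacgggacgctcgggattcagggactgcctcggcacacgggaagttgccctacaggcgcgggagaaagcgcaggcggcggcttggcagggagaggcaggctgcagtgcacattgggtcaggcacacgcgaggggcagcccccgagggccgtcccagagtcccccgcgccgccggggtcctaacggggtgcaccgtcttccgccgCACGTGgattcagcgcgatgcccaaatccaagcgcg
PPAN: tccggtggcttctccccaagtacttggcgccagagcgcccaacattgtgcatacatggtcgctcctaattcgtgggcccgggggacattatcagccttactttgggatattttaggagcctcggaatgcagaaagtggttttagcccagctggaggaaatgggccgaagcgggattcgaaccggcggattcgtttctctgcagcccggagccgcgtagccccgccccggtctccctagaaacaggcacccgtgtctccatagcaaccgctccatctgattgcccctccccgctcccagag
RRP9: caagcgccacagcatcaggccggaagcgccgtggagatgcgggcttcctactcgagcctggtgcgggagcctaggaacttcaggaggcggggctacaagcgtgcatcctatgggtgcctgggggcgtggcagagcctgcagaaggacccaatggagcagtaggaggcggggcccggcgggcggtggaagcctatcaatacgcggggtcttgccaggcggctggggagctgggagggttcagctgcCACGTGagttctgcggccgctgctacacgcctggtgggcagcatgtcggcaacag
RIOK2: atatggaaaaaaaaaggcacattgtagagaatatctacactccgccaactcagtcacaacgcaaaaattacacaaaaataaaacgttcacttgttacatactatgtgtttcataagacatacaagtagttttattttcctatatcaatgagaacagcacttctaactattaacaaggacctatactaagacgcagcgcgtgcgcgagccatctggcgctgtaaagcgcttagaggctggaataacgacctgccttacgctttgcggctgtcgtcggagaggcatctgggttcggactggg
WDR75: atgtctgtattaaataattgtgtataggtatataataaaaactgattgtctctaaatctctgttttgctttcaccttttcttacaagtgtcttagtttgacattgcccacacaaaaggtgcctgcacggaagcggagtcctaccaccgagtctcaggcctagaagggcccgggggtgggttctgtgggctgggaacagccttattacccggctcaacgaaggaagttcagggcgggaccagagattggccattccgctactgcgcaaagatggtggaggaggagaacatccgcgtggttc
MRTO4 held its E-box at 15 and RRP9 at -5, while PPAN, RIOK2 and WDR75 held none in this window. With panobinostat in MM1.S, 20 of 20 tested genes with an E-box fell (median log2 fold change -1.29), and 23 of 27 without one did (median -1.16). The 9 tested genes whose promoter was not read also fell (9 of 9, median -0.95), and whether they hold an E-box is not known. In JJN3 10 of 20, 18 of 27 and 5 of 9 fell, with medians of -0.48, -0.55 and -0.49.

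In JJN3 panobinostat lowered fewer of the genes and by less. Of 56 tested, 33 fell and 0 rose, against 10.9% of all genes that fell and 15% that rose. The median log2 fold change was -0.51, all 56 were below 0 (49.6% of all genes were), and 3 fell at least 2-fold (1.92% of all genes). With the replicate number as a block, which the correlation between same-numbered JJN3 libraries allows, 46 fell (19.5% of all genes did), and without the replicate 2 libraries 27. It was 18 without panobinostat replicate 1, and 20 without panobinostat replicate 3 or vehicle replicate 2.

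NCL had the largest fall in JJN3, from 680, 718 and 709 CPM to 316, 353 and 321 CPM (log2 fold change -1.10 ± 0.10, edgeR adjusted p = 3.52e-06). The groups were far apart. NPM1 fell from 1468, 1360 and 1401 CPM to 1142, 953 and 1053 CPM (-0.44 ± 0.11). NOP16 had 64.5, 115 and 75.3 CPM with vehicle and 29.3, 61.8 and 31.5 CPM with panobinostat, with replicate 2 the highest in both groups (-1.08 ± 0.32, edgeR adjusted p = 0.0279). The helicase DDX56 and PNO1 fell by 1.00 ± 0.16 and 0.97 ± 0.31 on the log2 scale. MRTO4 fell from 71.9, 84.0 and 75.0 CPM to 35.1, 42.8 and 45.9 CPM (-0.91 ± 0.15).

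By role, 3 of 3 abundant nucleolar proteins, 5 of 7 snoRNP genes, 2 of 4 t-UTP genes, 6 of 11 other SSU processome genes, 5 of 8 late 40S genes, 1 of 3 PeBoW genes and 11 of 20 other 60S genes fell in JJN3. Genes called in MM1.S and not in JJN3 included NOP58 (-0.29 ± 0.17), HEATR1 (-0.65 ± 0.34), IMP4 (-0.16 ± 0.14), PES1 (-0.39 ± 0.35) and GNL3 (-0.72 ± 0.26, edgeR adjusted p = 0.0563). WDR75 and DDX27, which did not pass in MM1.S, fell in JJN3 by 0.44 ± 0.15 and 0.35 ± 0.12 on the log2 scale. In all, 31 genes fell in both lines, 59.6% of the 52 called in MM1.S and 93.9% of the 33 called in JJN3. The counts by role and the shared count come from the fit without the replicate block. With the block 46 genes fell in JJN3, and neither count was repeated there, so both can understate what JJN3 shares with MM1.S. Replicates also spread more widely in JJN3 than in MM1.S, so a gene not called in JJN3 may still have fallen. Across the 56 genes the fold changes of the lines, which share no library, had a Pearson correlation of 0.608, given as a description, since the genes share libraries.

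The difference between the lines was tested directly. For panobinostat the log2 fold change was higher in JJN3, that is, the fall was smaller, for 24 of 56 genes and lower for 1, against 18.9% and 14.4% of all genes (33.3% either way), with a median difference of 0.60. Without the JJN3 replicate 2 libraries 23 differed. With the replicate block 32 were higher and 2 lower (23.1% and 17.8% of all genes). MRTO4 differed by 2.25 ± 0.22 (edgeR adjusted p = 3.09e-09), PPAN by 1.67 ± 0.34, RRP9 by 1.65 ± 0.35 and UTP20 by 1.52 ± 0.33. Among the abundant genes NCL differed by 0.53 ± 0.15 and DDX21 by 0.85 ± 0.26, and NPM1 stood at 0.10 ± 0.14 without passing (edgeR adjusted p = 0.634). WDR75 was the gene with the opposite sign, at -0.68 ± 0.20. With library size alone as scaling, 19 were higher and 2 lower, and among all genes 1994 were higher and 2270 lower in place of 2433 and 1851.

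With vehicle the lines already differed in these genes, about as often as in others. Between vehicle-treated JJN3 and MM1.S 13 of 56 were higher in JJN3 and 19 lower, against 30.2% and 33.5% of all genes, and 33 differed without the JJN3 replicate 2 libraries. RRP15, a 60S factor, had 68.3, 83.1 and 74.7 CPM in MM1.S and 14.2, 19.6 and 17.2 CPM in JJN3, the largest gap (log2 difference -2.14 ± 0.16, edgeR adjusted p = 9.12e-13). UTP20, HEATR1, PNO1 and NOP2 were also lower in JJN3, by -1.61 ± 0.20, -1.21 ± 0.25, -1.11 ± 0.24 and -1.10 ± 0.21 on the log2 scale. NOB1 had 106, 106 and 103 CPM in JJN3 and 39.3, 44.2 and 46.3 CPM in MM1.S (1.28 ± 0.12), and NLE1 (1.08 ± 0.20), DDX10 (0.97 ± 0.17) and the kinase RIOK1 (0.84 ± 0.16) were higher too.

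**Figure D4:**
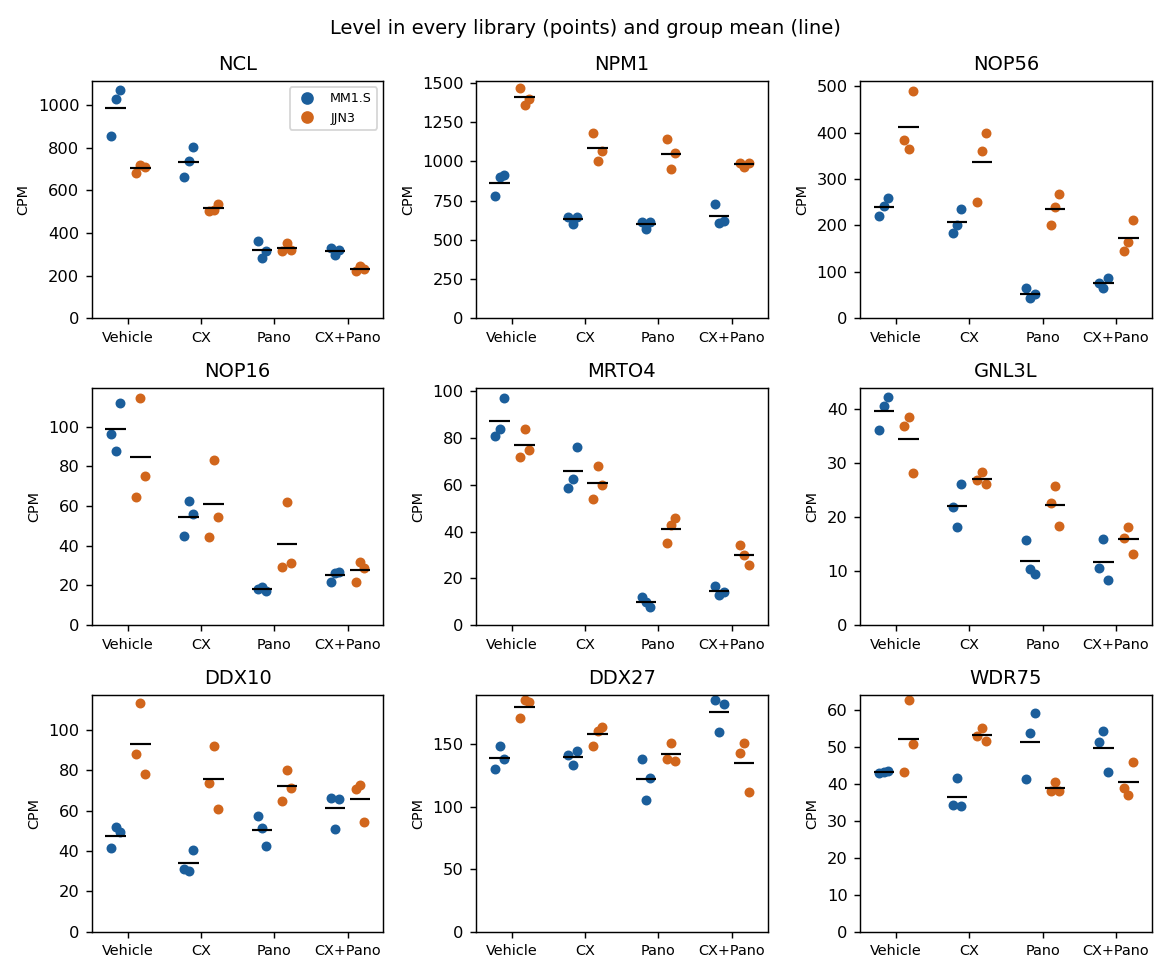
Level (CPM, y axes starting at 0) of 9 genes in every library (points) with the group mean (line), by treatment, in MM1.S (blue) and JJN3 (orange). The 9 were picked after their values had been seen; NCL, NOP56, NOP16, MRTO4 and GNL3L fall in MM1.S with panobinostat, NPM1 falls less, and DDX10, DDX27 and WDR75 do not.

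CX-5461 lowered 19 of the 56 genes in MM1.S and raised 0, against 7.06% of all genes that fell and 9.68% that rose. The falls were small, with a median log2 fold change of -0.31 and none at 2-fold. Of the 56, 52 were below 0, against 48.5% of all genes, and in 36 the CX-5461 libraries all lay below the vehicle libraries (16.6% of all genes). NOP16 had the largest fall, from 96.3, 87.9 and 112 CPM to 44.9, 62.6 and 56.1 CPM (-0.86 ± 0.12, edgeR adjusted p = 1.84e-05), with no overlap. GNL3L fell from 36.2, 40.7 and 42.3 CPM to 21.8, 18.2 and 26.3 CPM (-0.84 ± 0.18), RRS1, a factor that brings 5S RNA into the 60S precursor, by 0.58 ± 0.11, and BYSL by 0.57 ± 0.14 on the log2 scale.

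All 3 abundant nucleolar proteins fell with CX-5461 in MM1.S, NPM1 by 0.45 ± 0.10, NCL by 0.42 ± 0.11 and DDX21 by 0.32 ± 0.11 on the log2 scale. The NPM1 libraries had 649, 598 and 647 CPM and the NCL libraries 660, 736 and 801 CPM, all below their vehicle libraries. For NPM1 the value with CX-5461 was close to that with panobinostat (-0.52 ± 0.10), and for NCL it was far from it (-1.62 ± 0.11), although these comparisons share the vehicle libraries and their difference was not tested. Of the snoRNP genes 4 of 7 fell (DKC1, NOP58, GAR1 and NOLC1), of the other SSU processome genes 3 of 11 (UTP14A, DDX10 and MPHOSPH10) and of late 40S assembly 3 of 8 (BYSL, TSR1 and NOB1). Of the t-UTP and PeBoW genes 0 of 4 and 0 of 3 passed (edgeR adjusted p of 0.235 or higher). FBL, NOP56 and HEATR1 stood at -0.24 ± 0.10, -0.21 ± 0.12 and -0.13 ± 0.20 and did not pass. DDX10, level with panobinostat alone, was among those that fell with CX-5461, from 41.6, 51.8 and 49.4 CPM to 31.2, 30.2 and 40.5 CPM (-0.48 ± 0.14, edgeR adjusted p = 0.0205).

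The count of 19 rested on single libraries and on the scaling. It was 5 without CX-5461 replicate 1, 9 without vehicle replicate 3 and 10 with library size alone, where 1544 genes were called higher and 509 lower among all genes in place of 1165 and 849.

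In JJN3 0 of 56 genes passed with CX-5461, as did 0 of all 11411 genes. At an unadjusted p under 0.05 there were 8 of the 56 (5.55% of all genes), DESeq2 called 2 and limma-voom 0. The median log2 fold change of the 56 was -0.23, and 51 were below 0, against 50.7% of all genes. NCL had 680, 718 and 709 CPM with vehicle and 501, 509 and 536 CPM with CX-5461, groups that did not overlap (-0.45 ± 0.10, edgeR adjusted p = 0.301). NPM1 had 1184, 1002 and 1066 CPM with CX-5461, below its vehicle libraries (-0.38 ± 0.11, edgeR adjusted p = 0.542). With the replicate number as a block 4 genes passed, all lower, against 0.771% of all genes: NCL (edgeR adjusted p = 0.00106), NPM1 (0.00404), NOP16 (0.0212) and BOP1 (0.0377). Those 2 called by DESeq2 were NCL and NPM1, and without the replicate 2 libraries edgeR called 0. The difference of the CX-5461 effect between the lines was called for 0 of 56 genes, with a median of 0.09, against 0.287% higher and 1.03% lower among all genes. Without adjustment 2 of the 56 had a p under 0.05 (11.0% of all genes), without the JJN3 replicate 2 libraries 0 were called, and NOP16 stood at 0.37 ± 0.35 (edgeR adjusted p = 0.798).

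With both drugs in MM1.S 47 of 56 genes were lower and 2 higher than with vehicle, against 33.2% and 37.0% of all genes, with a median of -0.90. MRTO4 (-2.58 ± 0.15), UTP20 (-2.22 ± 0.19), NOP16 (-1.97 ± 0.13) and RRP9 (-1.96 ± 0.19) had the largest falls. The 2 that rose were helicases. DDX27 had 130, 148 and 138 CPM with vehicle and 185, 160 and 182 CPM with both drugs, with no overlap (0.35 ± 0.11, edgeR adjusted p = 0.00482). DDX10 had 41.6, 51.8 and 49.4 CPM and 66.4, 51.2 and 65.8 CPM, groups that overlapped (0.37 ± 0.14, edgeR adjusted p = 0.0209). Those called neither way were WDR75, MPHOSPH10, NOB1, RIOK1, RIOK2, NLE1 and SDAD1, with log2 fold changes of -0.40 to 0.21.

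In JJN3 47 of 56 were lower with both drugs and 0 higher, against 18.2% and 21.0% of all genes, with a median of -0.73 and 16 at least 2-fold lower (5.35% of all genes). NOP16 (-1.64 ± 0.33), NCL (-1.61 ± 0.11), MRTO4 (-1.37 ± 0.15) and UTP20 (-1.32 ± 0.28) had the largest falls. NCL had 221, 245 and 229 CPM with both drugs, below every library with 1 drug. DKC1 fell from 174, 229 and 183 CPM to 69.5, 91.1 and 81.3 CPM (-1.29 ± 0.16), GNL3 by 1.31 ± 0.27, BOP1 by 1.28 ± 0.13 and PES1 by 1.05 ± 0.36 on the log2 scale. The 9 that did not pass were NOP58, WDR75, MPHOSPH10, NOC4L, PNO1, LTV1, RIOK2, NOP2 and RRP15. RIOK2 had 22.0, 21.3 and 20.8 CPM with vehicle and 24.8, 18.5 and 23.1 CPM with both drugs (0.05 ± 0.16). Without the replicate 2 libraries 42 genes were lower. With library size alone 37 were, and among all genes 2943 were higher and 1539 lower in place of 2400 and 2072.

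The effect of both drugs differed between the lines for 15 of the 56 genes, while 32.8% of all genes differed, so these genes did not differ more often than others. It was higher in JJN3 for 9 of the 56 and lower for 6, against 18.8% and 14% of all genes, and the median difference was 0.04 (-0.04 with library size alone). MRTO4 (1.23 ± 0.22), LTV1 (1.18 ± 0.41), RRS1 (1.15 ± 0.22) and UTP20 (0.91 ± 0.34) had the higher value in JJN3. LTV1, a 40S export factor, had 12.8, 26.1 and 17.5 CPM with vehicle and 14.1, 17.7 and 20.8 CPM with both drugs in JJN3, and 15.1, 14.4 and 16.2 CPM and 5.63, 8.42 and 4.57 CPM in MM1.S. DDX10 (-0.86 ± 0.23), DDX27 (-0.75 ± 0.16), RIOK1 (-0.67 ± 0.22) and NAT10 (-0.60 ± 0.17) had the lower value in JJN3. With the replicate block 17 were higher and 7 lower, against 23.1% and 17.3% of all genes, and without the JJN3 replicate 2 libraries 15 differed.

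In MM1.S both drugs against panobinostat alone gave 7 genes higher and 0 lower of 56, against 2.44% and 1.65% of all genes, with a median of 0.22 and 50 above 0 (50.1% of all genes were below 0). The 7 were RIOK1 (0.72 ± 0.17), BOP1 (0.66 ± 0.19), NOP2 (0.61 ± 0.16), NOP56 (0.53 ± 0.14), DDX27 (0.53 ± 0.11), RRP15 (0.48 ± 0.13) and NAT10 (0.47 ± 0.12). RIOK1 had 18.0, 14.95 and 15.1 CPM with panobinostat and 23.3, 26.2 and 29.6 CPM with both, near its 20.2, 26.9 and 29.6 CPM with vehicle. NAT10 had 45.9, 34.1 and 32.6 CPM and then 52.0, 51.3 and 51.9 CPM, and NOP56 64.4, 43.6 and 51.5 CPM and then 76.6, 65.8 and 87.7 CPM. In each of these 3 genes the groups did not overlap. The count moved with single libraries, to 15 without panobinostat replicate 1, to 1 without panobinostat replicate 2 or 3 and to 2 without replicate 1 or 3 of both drugs. With library size alone 8 were higher, and among all genes 401 were higher and 150 lower in place of 293 and 198.

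In JJN3 1 of 56 genes was lower with both drugs than with panobinostat alone and 0 were higher, against 0.719% and 0.184% of all genes, with a median of -0.21 and 46 below 0 (49.1% of all genes). That gene was NCL, with 316, 353 and 321 CPM with panobinostat and 221, 245 and 229 CPM with both (-0.51 ± 0.10, edgeR adjusted p = 0.0290). With the replicate block 12 were lower, against 6.48% of all genes, among them NOP56 (edgeR adjusted p = 0.00151), DKC1 (0.00113), BOP1 (0.00482), NOP16 (0.00774) and GNL3 (0.000711). The count was 0 without the replicate 2 libraries, without any 1 of 5 single libraries (panobinostat 1, 2 or 3, both drugs 1 or 3) and with library size alone, where 59 genes were higher and 56 lower among all genes in place of 21 and 82. The difference between the lines, a comparison added after the data had been seen, was below 0 for 52 of 56 genes (47.5% of all genes), with a median of -0.46, and 3 passed as lower, against 0.404% of all genes. The 3 were BOP1 (-1.16 ± 0.24), MRTO4 (-1.02 ± 0.24) and NAT10 (-0.84 ± 0.17, edgeR adjusted p = 0.0146). BOP1 had 21.3, 12.3 and 13.1 CPM with panobinostat and 29.3, 18.0 and 26.7 CPM with both drugs in MM1.S, and 66.3, 50.8 and 56.2 CPM and 40.9, 40.1 and 42.0 CPM in JJN3. NAT10 in JJN3 had 40.8, 46.9 and 44.7 CPM and then 35.3, 32.2 and 34.3 CPM. With the block 13 passed, all below 0 (2.97% of all genes), without the JJN3 replicate 2 libraries there were 2, without MM1.S panobinostat replicate 1 there were 7, without MM1.S panobinostat replicate 3 there were 0, and without MM1.S panobinostat 2, MM1.S both drugs 1 or 3 or JJN3 both drugs 1 there was 1. Among all genes the split was 37 higher and 52 lower, or 53 and 33 with library size alone.

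**Figure D5:**
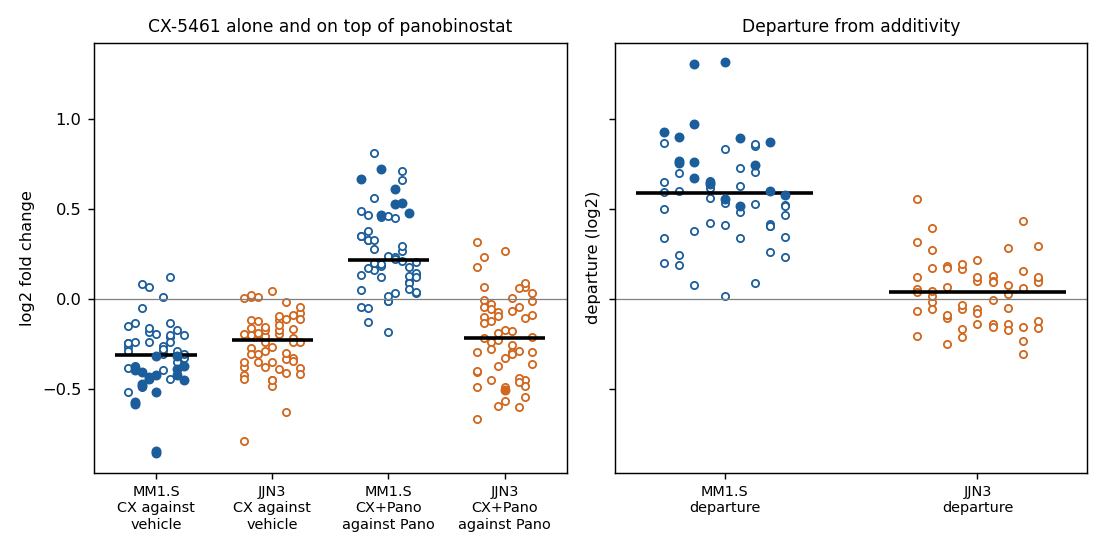
Left, log2 fold changes (y axis) of the 56 genes tested for CX-5461 against vehicle and for both drugs against panobinostat, in MM1.S (blue) and JJN3 (orange); right, the departure of the combined effect from the sum of the single effects. Filled points passed an adjusted p under 0.05 and lines are medians; the departure has a median of 0.59 in MM1.S and 0.04 in JJN3.

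Each log2 fold change with both drugs was set against the sum of those with the single drugs, and the difference is called here the departure from additivity. In MM1.S it was above 0 for all 56 genes (55 with library size alone), while 51.7% of all genes were below 0, and the median was 0.59. With both drugs 50 of the 56 genes stood below vehicle, and their combined fall was smaller than the sum of the single changes. The other 6 stood above vehicle and had no combined fall. The 56 values come from the same libraries and are not independent. The departure passed for 18 genes, all higher, against 1.87% higher and 3.65% lower among all genes. NOP16 departed most, by 1.32 ± 0.20 (edgeR adjusted p = 1.08e-04), with falls of -0.86 and -2.43 with the single drugs and -1.97 with both. PPAN (1.30 ± 0.36), MRTO4 (0.97 ± 0.22) and BOP1 (0.93 ± 0.25) came next. NPM1 departed by 0.58 ± 0.14, with -0.45 and -0.52 with the single drugs and -0.40 with both, and NCL by 0.41 ± 0.15 without passing (edgeR adjusted p = 0.121). MPHOSPH10 departed by 0.77 ± 0.17, and with both drugs it stood at 0.07 ± 0.12. The 18 became 33 without panobinostat replicate 1 and 8 to 11 without any 1 of 5 other libraries (vehicle 2 or 3, CX-5461 1, panobinostat 3, both drugs 1).

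In JJN3 the departure passed for 0 of 56 genes and 0 of all genes, with a median of 0.04 and 31 of 56 above 0 (50.1% of all genes were below 0), and it passed for 0 without the replicate 2 libraries. Without adjustment 1 of the 56 had a p under 0.05 (4.94% of all genes), and DESeq2 and limma-voom called 0 of the 56. NOP16 stood at -0.08 ± 0.46, MRTO4 at -0.10 ± 0.21, NPM1 at 0.29 ± 0.15 and NCL at -0.06 ± 0.15. The departure in JJN3 minus that in MM1.S, also added after the data had been seen, was below 0 for 52 of 56 genes (47.9% of all genes) with a median of -0.59, but passed for 0 of the 56 with edgeR (0.0155% of all genes were called lower). Without adjustment 17 of the 56 had a p under 0.05 (8.54% of all genes), DESeq2 and limma-voom called 0, edgeR called 0 without the JJN3 replicate 2 libraries, and with the replicate block 7 passed, all below 0 (0.800% of all genes). These were NOP56, DKC1, NAT10, BOP1, NOP16 (-1.35, edgeR adjusted p = 0.00133), MRTO4 and GNL3.

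Some of these genes carry other RNAs in their introns. RefSeq annotates 27 small nucleolar RNA genes inside 9 of the 56 genes tested, among them 5 each in NOP56 and GNL3, 4 in NOP58 and 3 each in NCL and WDR43. With panobinostat in MM1.S 9 of 9 hosts fell, with a median log2 fold change of -1.62, and 43 of 47 others, with a median of -1.05. With both drugs in JJN3 8 of 9 hosts fell (median -1.25) and 39 of 47 others (median -0.70). This grouping was made with the fold changes known and carries no test. Of the 58 genes 24 overlap another annotated gene and 19 have named pseudogenes. As the strand setting of the counting is not given in the sources used here, their reads and those of an overlapping gene cannot be told apart.

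Other genes of ribosome assembly, from a separate list of 82, moved with these. That list and the one of the RNA exosome were also chosen with earlier results of these data known. With panobinostat in MM1.S 55 of 76 tested were lower and 5 higher, against 32.9% and 36.9% of all genes, with a median of -0.57. DHX37, a helicase of the SSU processome, DDX54 and NOL6 had the largest falls, at -2.62 ± 0.26, -2.18 ± 0.15 and -1.99 ± 0.17. RIOK3, a kinase related to RIOK2, rose by 1.50 ± 0.13, and EFL1 and RSL24D1, both of the late 60S subunit, by 0.59 ± 0.17 and 0.59 ± 0.11. With CX-5461 in MM1.S 17 were lower and 0 higher, against 7.06% and 9.68% of all genes. In JJN3 26 of 76 tested were lower with panobinostat, 37 with both drugs and 0 with CX-5461, and 0 were higher in any of the 3. Among all genes tested in JJN3 10.9% were lower with panobinostat and 18.2% with both drugs. With CX-5461 0 of all 11411 genes passed there. RIOK3 stood at 0.10 ± 0.17 with panobinostat in JJN3 (edgeR adjusted p = 0.700). Of 12 genes of the RNA exosome, the nuclease complex that trims the ends of ribosomal RNA precursors, 9 were lower and 1 higher with panobinostat in MM1.S and 6 and 0 in JJN3. EXOSC5 fell by 1.74 ± 0.22 in MM1.S and by 0.76 ± 0.21 in JJN3 on the log2 scale, while the nuclease DIS3 rose in MM1.S by 0.36 ± 0.14.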

How the data were processed

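RNA of MM1.S and JJN3 was sequenced in 24 libraries. For each line the authors deposited raw counts, whole numbers by NCBI Gene identifier, and all value columns were matched to samples (0 columns were left unused). Per the submitters' processing notes, HISAT2 2.2.1, featureCounts 2.0.1, limma 3.50.0, hg19 and GRCh37 were used, with no role stated there. For the annotation, the strand setting and multiply mapped reads, nothing is stated in the labels or notes. Symbols of 27745 of 28395 identifiers, snoRNA positions, overlaps and promoters came from RefSeq on GRCh38.p14. The labels name both a polyA kit and 3′ sequencing, and the library type was not settled.

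Counts were fitted in R 4.3.3 with edgeR 4.0.16 (TMM, filterByExpr, robust quasi-likelihood fit and F test, Benjamini-Hochberg adjustment over all genes tested, threshold 0.05), per line (12030 genes in MM1.S, 11411 in JJN3) and, for differences between lines, over both (12872). Log2 fold changes are ± SE, and levels are per replicate. The members and lists were chosen with earlier results of these data known. Genes were named by role, as the largest and smallest changes with panobinostat in MM1.S and the 4 largest called changes per comparison, plus a fixed set of anchor genes. Same-numbered libraries deviated together in all 18 pairs in JJN3 (r of 0.201 to 0.485). In MM1.S 6 of 18 pairs did so at r over 0.1 (r of -0.0474 to 0.290 over the 18). The replicate number thus pairs the JJN3 libraries, by the data and not the labels, and in MM1.S any pairing was weaker. Alternatives were library size alone, DESeq2 size factors, no low-count filter, DESeq2 1.42.0, limma-voom (limma 3.58.1), the replicate block and leaving out each library. At 4751893 to 7305069 counts per library, low genes such as PPAN rest on few counts, and the counts carry counting error beside the spread between replicates.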

Additional observations from a re-analysis of the deposited data

Results flagged for a closer look

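The effect of panobinostat differed between JJN3 and MM1.S, by the test of the difference itself, for 25 of the 56 genes (33.3% of all genes differed). MRTO4 (2.25), PPAN (1.67), RRP9 (1.65) and UTP20 (1.52) had the largest differences in log2 fold change, JJN3 minus MM1.S, and WDR75 (-0.68) the one of opposite sign. The effect of both drugs differed for 15 of the 56, while 32.8% of all genes differed, so not more often than among other genes. It was higher in JJN3 for MRTO4 (1.23), LTV1 (1.18), RRS1 (1.15) and UTP20 (0.91) among others, and lower for DDX10 (-0.86), DDX27 (-0.75), RIOK1 (-0.67) and NAT10 (-0.60). The change from panobinostat to both drugs, a comparison added after the data had been seen, differed for 3 genes, BOP1 (-1.16), MRTO4 (-1.02) and NAT10 (-0.84). MRTO4 was in all 3 lists, and these comparisons share libraries. Line, p53 label and every other property of the 2 lines cannot be told apart.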

How the results depend on the processing

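Counts of called genes among the 56 (the 58 with no filter) moved by over 1.5 times from the reported value in these cases, and the cause was not tested. CX-5461 in MM1.S (19) gave 10 with library size alone. CX-5461 in JJN3 (0) gave 2 with DESeq2 and 4 with the replicate block. Both drugs against panobinostat in JJN3 (1) gave 0 with library size alone or without the replicate 2 libraries, 3 with no filter, 2 with DESeq2 and 12 with the block. The difference between lines for both drugs (15) gave 24 with the block. That for both drugs against panobinostat (3) gave 9 with no filter, 7 with DESeq2 and 13 with the block, and that for the departure (0) gave 1 with no filter and 7 with the block. The share of promoters with an E-box (42.9%) was 14.3% upstream alone. Leaving out 1 library at a time gave ranges of 5 to 16 (CX-5461, MM1.S), 48 to 54 (panobinostat, MM1.S), 48 to 50 (both drugs, MM1.S), 1 to 15 (both drugs against panobinostat, MM1.S), 8 to 33 (departure, MM1.S), 18 to 37 (panobinostat, JJN3), 40 to 48 (both drugs, JJN3) and 0 to 1 (both drugs against panobinostat, JJN3). For differences between lines they were 18 to 27 (panobinostat), 10 to 16 (both drugs), 0 to 7 (both drugs against panobinostat) and 0 to 1 (departure), and for vehicle 28 to 30. In MM1.S same-numbered libraries deviated together more weakly than in JJN3. There the replicate block gave 25, 52, 49, 10 and 22 called genes for CX-5461, panobinostat, both drugs, both drugs against panobinostat and the departure. None of the alternatives run reversed a called direction.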
